A study of Mus musculus with 8 samples.

Results

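Kidneys obstructed for 7 days in mice given 5AZA were compared with kidneys of sham-operated mice, to ask where CpG methylation in the treated kidneys ended above, at or below the sham level. The comparison used 3 of the 8 libraries of a mouse kidney fibrosis study by reduced representation bisulfite sequencing (RRBS), namely 2 libraries of obstructed kidney with 5AZA and 1 library of sham kidney. RRBS reads DNA fragments released by the enzyme MspI, which cuts at CCGG, after bisulfite has turned unmethylated cytosines into bases that read as thymine. All mice were male, wild type C57BL/6J, and the DNA came from kidney cortex and outer medulla. In the treated mice the left ureter was tied at 2 places and cut between the ties (unilateral ureteral obstruction, UUO), and 5AZA was given by intraperitoneal injection in saline at 1 mg per kg per day. The sham mice had the surgery without ligation, and the labels name no injection for them, so the comparison holds the effect of obstruction and of 5AZA together and these cannot be told apart in it. The labels give no age and no first day of dosing. Libraries outside the comparison are given beside it: 2 of UUO without 5AZA, 1 each of bilateral ischemia of 25 minutes with 1 week and with 1 month of reperfusion, and the sham of that ischemia series.

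Members were all autosomal CpG positions with at least 10 reads in each of the 3 libraries, and the 1000 bp windows holding at least 3 of them. There were 1047254 such positions in 102077 windows, while 91942 windows met the same limits in all 8 libraries. The median window held 5 positions and 208, 238 and 250 reads in 5AZA library 1, 5AZA library 2 and sham. The level of a position or window is the percentage of its reads that were methylated. The labels do not say whether the 5AZA libraries came from separate animals, so SDs cover the spread between these 2 libraries alone. The p-values and intervals of windows take their spread from the 5AZA and UUO pairs together, partly pooled over windows. The sham group has 1 library with no replicate check of its own. Fewer cells of a type and a change of methylation within a cell type cannot be told apart in bulk DNA.

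DNA methylation in mammals sits mostly on CpG dinucleotides, where it is written by DNMT3A and DNMT3B and copied to the new strand after replication by DNMT1 with its partner UHRF1, while TET1, TET2 and TET3 oxidise it. Most CpGs far from genes are methylated in adult tissue, whereas dense CpG clusters at promoters are mostly free of it, apart from promoters such as those of germline genes that are silenced in body tissues. The labels name the agent only as 5AZA, an abbreviation used for cytosine analogues that trap DNA methyltransferases once built into DNA.

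The promoters below show what was read at base level. They are the 250 bases before the start of transcription from the RefSeq promoter table (GRCm38.p6), printed 5′ to 3′ on the gene's strand, and capitals mark the CpGs with at least 10 reads in all 3 libraries. Each promoter was placed in the files' build, mm9, by the spacing of its CpGs alone. Tex101, which encodes a germ cell surface protein, shows a methylated promoter at chr7:25457070-25457319 on the minus strand. Henmt1, which encodes the enzyme that methylates the ends of piRNAs in germ cells, shows the promoter with the lowest p among those that were lower after 5AZA, at chr3:108743225-108743474 on the plus strand. Lrp2, which encodes megalin, the uptake receptor of the proximal tubule, shows an unmethylated promoter of a gene active in kidney, at chr2:69424087-69424336 on the minus strand.
Tex101: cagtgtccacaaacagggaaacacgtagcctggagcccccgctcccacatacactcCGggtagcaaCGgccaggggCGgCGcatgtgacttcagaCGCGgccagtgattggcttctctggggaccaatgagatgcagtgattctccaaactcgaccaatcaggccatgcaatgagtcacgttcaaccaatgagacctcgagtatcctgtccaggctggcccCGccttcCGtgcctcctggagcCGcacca
Henmt1: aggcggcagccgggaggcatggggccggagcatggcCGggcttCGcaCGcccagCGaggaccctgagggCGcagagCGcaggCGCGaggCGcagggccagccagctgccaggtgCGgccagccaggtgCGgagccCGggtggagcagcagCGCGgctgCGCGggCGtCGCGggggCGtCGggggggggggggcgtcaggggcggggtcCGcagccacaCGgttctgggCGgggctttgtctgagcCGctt
Lrp2: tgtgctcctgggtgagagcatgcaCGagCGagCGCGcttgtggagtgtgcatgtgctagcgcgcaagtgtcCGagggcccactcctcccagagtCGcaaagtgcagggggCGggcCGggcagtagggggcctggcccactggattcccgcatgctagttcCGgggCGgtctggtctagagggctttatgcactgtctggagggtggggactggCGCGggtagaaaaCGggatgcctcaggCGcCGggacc

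In these stretches, 9 of 14 CpGs of Tex101, 25 of 30 of Henmt1 and 15 of 18 of Lrp2 were measured. Over the CpGs outside CCGG in the 300 bp promoter, Tex101 stood at 93.6% in sham and at 89.8% and 90.1% in the 5AZA libraries. Henmt1 stood at 35.2% in sham and at 19.4% and 21.2% after 5AZA. Lrp2 stood at 2.04% in sham and at 1.75% and 1.46% after 5AZA.

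CpGs inside the MspI site itself need separate reading. In matched promoters with unmethylated CpGs elsewhere, 16966 CpGs in CCGG read 72.8% methylated in sham and 72.8% and 73.1% in the 5AZA libraries, while 60173 CpGs inside the fragments of the same promoters read 1.88%, 2.00% and 1.99%. Per the labels' protocols, fragment ends were repaired with methylated dCTP. Results are therefore given over all positions and again inside fragments, that is, without positions next to a step in read depth, which leaves 430542 positions and 35256 windows. The reading inside unmethylated promoters is also an upper bound on unconverted cytosine there, and it was alike in the sham and 5AZA libraries. It was lower, at 0.93% to 0.99%, in the 3 libraries of the ischemia series, whose part in differences between the shams was not tested.

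Averaged over all positions, methylation was slightly lower after 5AZA than in sham. Sham stood at 46.9%, 5AZA library 1 at 45.8% and 5AZA library 2 at 45.4%, which is -1.28 points with the 5AZA mean at 45.6% ± 0.334 (SD, n = 2). Inside fragments the sham level was 23.3% and the 5AZA levels were 22.3% and 21.8%, again -1.28 points apart. Each 5AZA library lay below the sham. However, the other sham library of the series stood at 45.9% over the same positions, a difference of -0.924 points from the sham used here. Without 5AZA, ischemia with 1 week of reperfusion stood at 45.4%, with 1 month at 46.0%, and UUO at 47.7% and 47.8%. Inside fragments these stood, in the same order, at 22.3%, 22.7%, 24.1% and 24.1%. The library of 1 week of reperfusion thus lay near the 5AZA levels. With 2 libraries against 1, an exact two-sided permutation test cannot go below p = 0.33, the value it gave.

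The share of highly methylated CpGs was also lower after 5AZA than in sham. Inside fragments, positions at 90% or more made up 11.5% of positions in sham, 7.26% in 5AZA library 1 and 5.72% in 5AZA library 2, while positions below 10% made up 68.7%, 68.5% and 68.7%. Intermediate levels held 19.8% of positions in sham and 24.2% and 25.6% after 5AZA. Over 403591 positions shared by all 8 libraries, the share at 90% or more was 6.61% and 5.30% in the 5AZA libraries, 10.7% in their sham, and between 9.95% and 10.9% in the other 5 libraries. Neither 5AZA library overlapped the range of the 6 libraries without 5AZA, whether injured or sham.

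The distance from sham varied with the level of the window. Classes were set by the level in the ischemia sham, so that no library of the comparison took part in the choice. Inside fragments, the 20058 windows below 10% stood at 2.48% in sham and at 2.55% and 2.58% after 5AZA, a difference of 0.0900 points. The 1916 windows from 10 to 30% stood at 21.0% in sham and at 20.2% and 19.5% after 5AZA, a difference of -1.13 points. Unmethylated windows thus ended at the sham level and the first partly methylated class slightly below it. The 3303 windows from 30 to 70% stood at 54.1% in sham and at 51.2% and 49.8% after 5AZA, a difference of -3.65 points with 50.5% ± 1.02 (SD, n = 2) after 5AZA. The 4546 windows from 70 to 90% stood at 83.4% in sham and at 79.0% and 77.4% after 5AZA, which is -5.23 points with 78.2% ± 1.18 (SD, n = 2) after 5AZA. The 5390 windows at 90% or more stood at 93.3% in sham and at 89.4% and 87.7% after 5AZA, a difference of -4.77 points with 88.6% ± 1.20 (SD, n = 2) after 5AZA. Inside fragments, both 5AZA libraries lay below sham in each of the 4 classes above 10%, and library 2 lay lower than library 1.

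**Figure D1:**
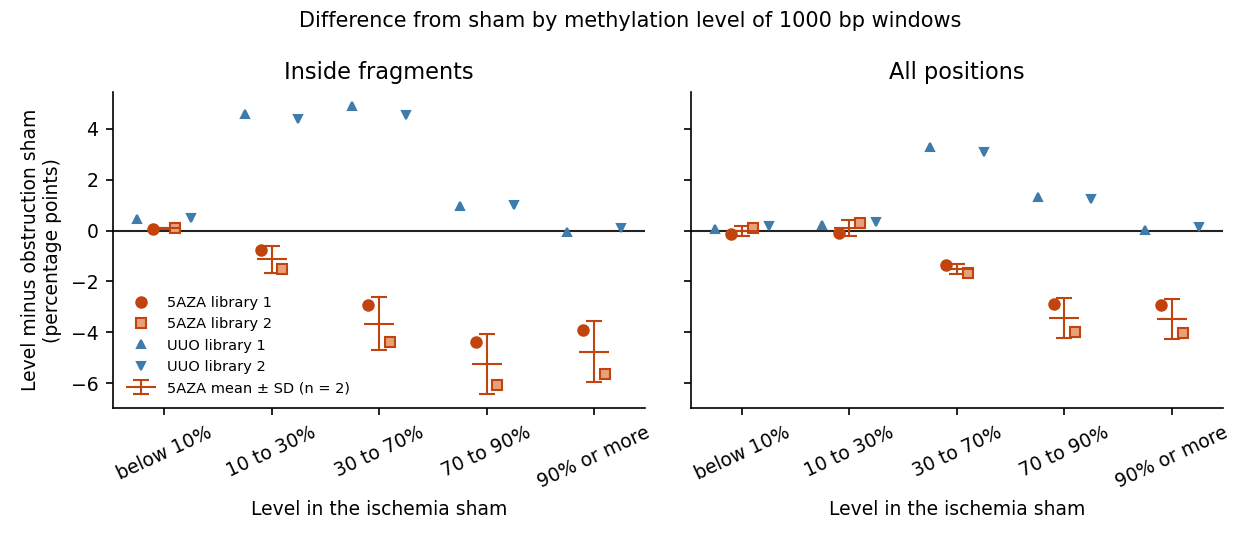
Difference of each library from the obstruction sham, in percentage points, for 1000 bp windows classed by their level in the ischemia sham (left, inside fragments; right, all positions). Circles and squares are the 5AZA libraries, bars their mean ± SD, and triangles the UUO libraries without 5AZA. The 5AZA libraries sit at 0.0900 points below 10% and at -4.77 points at 90% or more inside fragments, while the UUO libraries sit at or above the sham in the partly methylated classes.

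Relative to the sham level, the differences inside fragments lay closer together in the classes above 10%. They were -5.38% of the sham level from 10 to 30%, -6.75% from 30 to 70%, -6.27% from 70 to 90% and -5.11% at 90% or more. These shares of the sham level were not tested against each other. When the classes were set by both ischemia-injured libraries instead, so that both shams were outside the choice, the 5221 windows at 90% or more stood at 93.7% in either sham and at 89.9% and 88.2% after 5AZA. The 4786 windows from 70 to 90% stood at 83.3% in the obstruction sham, 82.7% in the ischemia sham and 79.0% and 77.4% after 5AZA. At these levels both 5AZA libraries lay below both shams. The 3391 windows from 30 to 70% stood at 52.8% in the obstruction sham, 50.3% in the ischemia sham and 49.9% and 48.4% after 5AZA, so there the ischemia sham lay close to the treated libraries. The 1903 windows from 10 to 30% stood at 19.3% and 17.6% in the shams and at 18.5% and 17.9% after 5AZA, between both shams. Over all positions, fragment ends included, the classes were set anew and held other windows, 20053 from 10 to 30% against 1916 inside fragments. Those 20053 windows stood at 19.3% in sham and at 19.2% and 19.6% after 5AZA. That is a difference of 0.0960 points with the 5AZA libraries on either side of sham. The other differences over all positions were -0.0220 points below 10%, -1.51 points from 30 to 70%, -3.44 points from 70 to 90% and -3.47 points at 90% or more.

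UUO kidneys without 5AZA, shown in the plot by level class, lay on the other side of the sham at intermediate levels. From 30 to 70% inside fragments they stood at 59.0% and 58.7% against 54.1% in sham, while at 90% or more they stood at 93.3% and 93.5% against 93.3%. These libraries share the sham with the 5AZA comparison and are given side by side only.

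Most single windows could not be told from the sham one at a time. A quasi-binomial test (limma's moderated dispersion, Benjamini-Hochberg adjustment over all windows) called a window at an adjusted p below 0.05 with a difference of at least 10 points. Over all positions it called 2 windows, both lower after 5AZA, which is 0.00196% of those tested, and inside fragments 5 windows (0.0142%), 4 lower (0.0113%) and 1 higher (0.00284%). At an unadjusted p below 0.05, 12206 windows were lower and 690 higher over all positions, and 2512 were lower and 588 higher inside fragments. The 2 sham libraries set against each other gave more such windows inside fragments than 5AZA against sham did, and fewer over all positions. Applied to the 2 sham libraries, the same test called 2 windows over all positions and 14 inside fragments, so the calls inside fragments did not exceed what 2 control libraries gave. The count of 2 became 430 with 5AZA library 2 alone and 69 with 5AZA library 1 alone, and 0 with both shams as 1 group, with limma on log2 ratios or under a replicate block. The 5 calls inside fragments also became 0 under each of these 3 settings and with edgeR.

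Direction was also counted by library, though both 5AZA libraries are set against the same sham, so an error in that sham moves both alike. Inside fragments, both 5AZA libraries lay below sham in 15726 windows (44.6%), on either side of it in 10870 (30.8%) and above it in 8660 (24.6%). At a distance of at least 10 points in both libraries, 879 windows (2.49%) were below sham and 72 (0.204%) above, and at 20 points the counts were 48 (0.136%) and 2 (0.00567%). Over all positions both libraries lay below sham in 55.6% of windows and above in 17.2%, with 1.7% and 0.165% at 10 points and 0.0637% and 0.0049% at 20 points. Windows with both libraries below made up 77.4% of those at 90% or more, 70.3% from 70 to 90% and 51.3% from 30 to 70%, but 29.2% below 10%, where 34.9% had both above. These shares were not tested, and the plot of window differences shows both libraries against the sham.

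**Figure D2:**
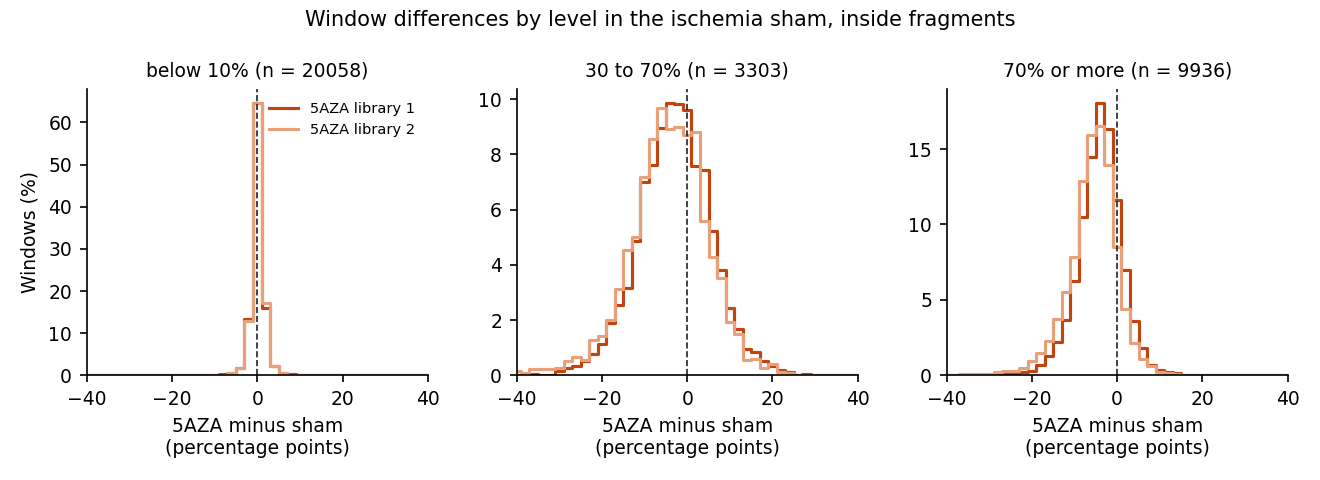
Share of windows (vertical axis, %) by the difference of each 5AZA library from sham (horizontal axis, percentage points, bins of 2), inside fragments, for 3 level classes set by the ischemia sham. Both libraries are centred at 0 below 10% and shifted as a whole to negative values in the methylated classes, with no separate group of strongly changed windows.

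A window was counted as at the sham level where the 95% interval of its difference lay within 10 points on either side. Inside fragments, 22389 windows (63.5%) met this limit and 12862 were unresolved, of which 10402 had a 5AZA mean below sham and 2460 a mean above. The share at the sham level was 97.5% below 10%, 31.8% from 10 to 30%, 4.45% from 30 to 70%, 9.72% from 70 to 90% and 30.3% at 90% or more. Over all positions 51455 windows (50.4%) met the limit and 50620 were unresolved, 39513 of them with a mean below sham. With a limit of 5 points, 16921 windows inside fragments (48.0%) and 14105 over all positions (13.8%) were at the sham level. Inside fragments, the 20058 windows below 10% met this limit in 83.8%. At a mean of 2.48% in sham, they had little room to fall by 5 or 10 points. Their passing on the low side was thus largely set by the floor, and they weigh heavily in the shares over all classes. Inside fragments the median interval reached 12.8 points to each side from 30 to 70% and 1.88 points below 10%. Over all positions, 56.6% of the 37670 windows at 90% or more met the limit of 10 points and 5.15% that of 5 points. The wider limit exceeds the mean difference of -3.47 points of that class, so a window within it may still share that difference.

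The difference from sham was furthest from 0 in CpG-poor windows. Inside fragments, windows with 3 to 5 positions stood at 56.2% in sham and at 53.6% and 52.3% after 5AZA, a difference of -3.24 points. Windows with 6 to 10 positions differed by -0.865 points inside fragments and by -2.50 points over all positions, near the -3.03 points of 3 to 5 positions there. Inside fragments, those with 11 to 19 differed by 0.0130 points (over all positions, -0.952 points) and those with 20 or more by 0.0680 points. CpG-dense windows were mostly unmethylated, so density and level had to be read together. Among windows from 70 to 90%, the difference was -5.36 points with 3 to 5 positions (n = 4059), -4.22 with 6 to 10 (n = 438), -3.96 with 11 to 19 (n = 36) and -3.31 with 20 or more (n = 13). Methylated windows of each density thus ended below sham, and the densest classes hold few windows.

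Start sites showed the same division by level. Promoters of 7145 genes were placed in the files, and distances were measured from those starts. Inside fragments, windows within 500 bp of a start stood at 2.87% in sham and at 2.89% and 2.93% after 5AZA, a difference of 0.0360 points. From 500 bp to 2 kb the difference was -0.240 points, from 2 to 10 kb -2.39 points, from 10 to 100 kb -2.32 points and beyond 100 kb -2.67 points. When only windows from 70 to 90% were taken, the difference was -4.96 points from 2 to 10 kb, -4.96 points from 10 to 100 kb and -5.58 points beyond 100 kb, and it was -3.10 points in the 13 such windows within 500 bp. Within 1 level class, differences beyond 2 kb thus lay between -5.58 and -4.96 points, and few methylated windows lay near a placed start. A start could be placed only where enough CpGs of its promoter were measured, so this scarcity does not describe CpG-poor starts. Windows far from a placed start may lie near starts that were not placed.

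**Figure D3:**
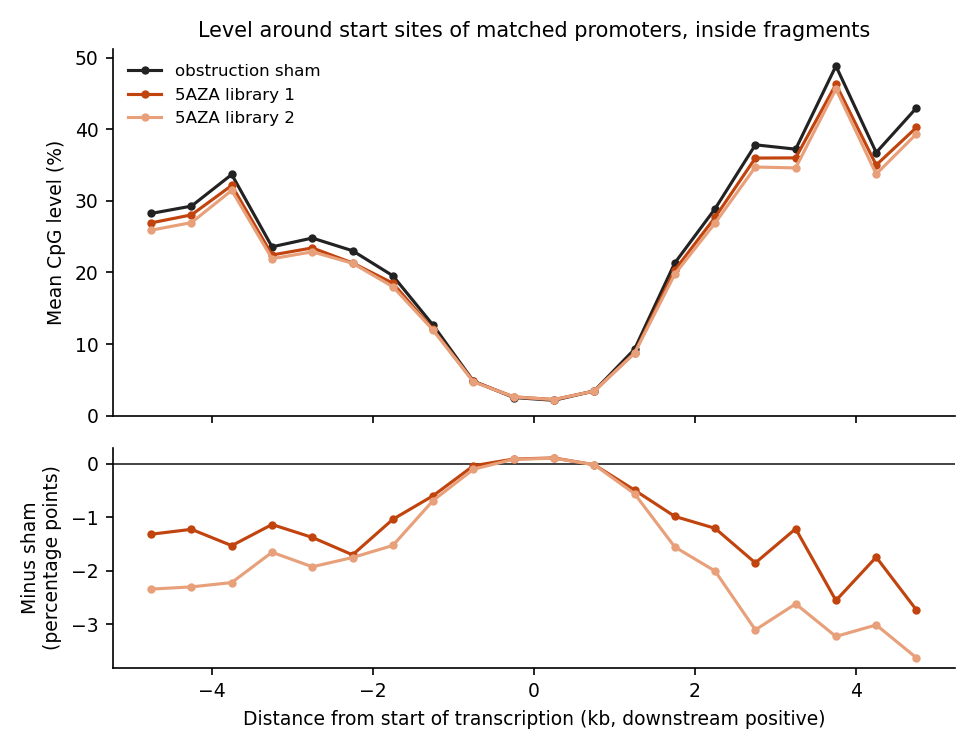
Mean CpG level (upper axis, %) and its difference from sham (lower axis, percentage points) in bins of 500 bp around placed starts of transcription. Values are inside fragments, for the obstruction sham and both 5AZA libraries. All 3 lines meet at the start, where the level is 2.15% in sham just downstream, and both 5AZA lines lie below sham as the level rises on either side.

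Matched promoters as a group stood close to sham. Of 7703 matched promoters with values, from 6868 genes, none was called (0.0%), with 322 at an unadjusted p below 0.05 by the limma-moderated test. Both 5AZA libraries lay below sham in 2189 (28.4%) and above in 2793 (36.3%). The 7552 promoters below 10% stood at 2.02% in sham and at 2.18% and 2.16% after 5AZA. The 42 promoters at 70% or more stood at 86.5% in sham and at 83.5% and 84.2% after 5AZA, a difference of -2.73 points with 83.8% ± 0.481 (SD, n = 2) after 5AZA. In that class 28 promoters had both 5AZA libraries below sham and 5 both above.

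Germline genes, silent in the adult body, were among those with methylated promoters. A list of 17 such genes, chosen after their levels were seen and therefore given without a test, held 13 with a sham level above 80%. Both 5AZA libraries lay below sham in 9 of the 17, on either side in 5 and above in 3, with a median difference of -1.30 points. Beside this, both lay below sham in 28 of the 42 promoters at 70% or more and in 28.4% of all matched promoters. Hormad1, a meiotic chromosome axis protein, stood at 86.5% in sham and at 79.3% and 85.1% after 5AZA. Dazl, an RNA-binding protein of germ cells, stood at 95.7% in sham and at 89.5% and 93.8%. Naa11, a testis-enriched acetyltransferase, stood at 93.2% in sham and at 88.8% and 89.5%. These 3 and Tex101, printed above, were the furthest below sham in the list, and none of them left the methylated range. The list leaves out Henmt1, also a gene of germ cells, which stood at 35.2% in sham and at 19.4% and 21.2% after 5AZA. Ddx4, the germ cell helicase VASA, went the other way, with 64.6% in sham and 73.7% and 77.1% after 5AZA (adjusted p = 0.836, limma-moderated test). Its UUO levels without 5AZA were 75.0% and 72.4%, and those of ischemia with 1 week and 1 month of reperfusion 74.8% and 74.3%, so the 6 injured libraries, with or without 5AZA, lay above both shams, of which the ischemia sham stood at 65.2%.

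**Figure D4:**
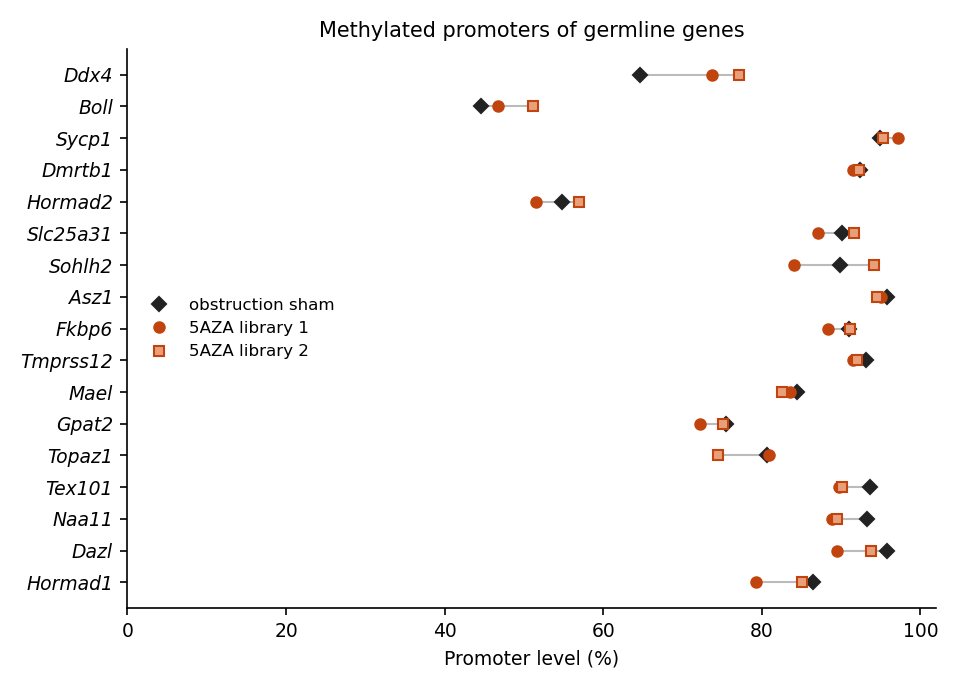
Promoter level (%) of 17 germline genes in the obstruction sham (diamonds) and both 5AZA libraries (circle and square), ordered by the difference. Most points sit within a few points of each other near 90%, Hormad1, Dazl, Naa11 and Tex101 are furthest to the left of sham, and Ddx4 and Boll are to its right.

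Genes of the methylation machinery and of the kidney gave no called promoter. All 7 writers and erasers looked for (Dnmt1, Dnmt3a, Dnmt3b, Uhrf1, Tet1, Tet2 and Tet3) were matched, with 9 promoters whose differences ran from -4.30 to 2.24 points around a median of 0.0120. Dnmt1 stood at 2.57% in sham and at 1.38% and 0.967% after 5AZA, and Uhrf1 at 1.39% in sham and at 0.894% and 1.92%. Tgfb1, the main profibrotic cytokine, was the 1 matched gene of 8 on a matrix list and stood at 3.02% in sham and at 1.35% and 5.62% after 5AZA. Igf2, the 1 matched gene of 5 imprinted genes, stood at 0.518% in sham and did not exceed 0.637% in either 5AZA library. Lrp2 was the 1 matched gene of 11 cell type markers, so the cell makeup of the kidneys was not checked beyond it, and none of 4 anti-fibrotic genes was matched. The promoters with the lowest p in either direction, named after their values were seen, were Henmt1 at a difference of -14.9 points (adjusted p = 0.149) and 4933428G20Rik, an uncharacterised gene, at 12.3 points (adjusted p = 0.125, both limma-moderated tests). 4933428G20Rik stood at 17.0% in sham, 26.5% and 32.1% after 5AZA and 48.0% and 46.5% in UUO without 5AZA, so the treated libraries lay between sham and UUO. Henmt1 stood at 28.4% and 32.7% in UUO and at 26.9% in the ischemia sham, so both 5AZA libraries lay below each of these.

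Windows were then followed by what obstruction without 5AZA showed in them, measured as UUO minus the ischemia sham so that the sham of the comparison took no part. In 2277 windows inside fragments, UUO was over 10 points above that library. By choice, UUO stood at 58.8% and 56.8% there and the ischemia sham at 41.5%. The obstruction sham stood at 47.8%, and 5AZA library 1 and 2 at 46.5% and 45.1%, between both shams. The treated kidneys thus ended -2.02 points from sham, with 45.8% ± 0.957 (SD, n = 2), where UUO had been chosen to be high. Where UUO was 5 to 10 points above, the difference was -2.81 points, and where it was within 5 points, -1.44 points. In the 331 windows where UUO was more than 10 points below, UUO stood at 56.5% and 60.9% and the ischemia sham at 73.2%, by choice. The obstruction sham stood at 67.3% there and the treated libraries at 61.5% and 59.4%, a difference of -6.88 points. The treated libraries were thus near UUO without 5AZA in these windows. In all 5 classes both 5AZA libraries ended below the obstruction sham.

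**Figure D5:**
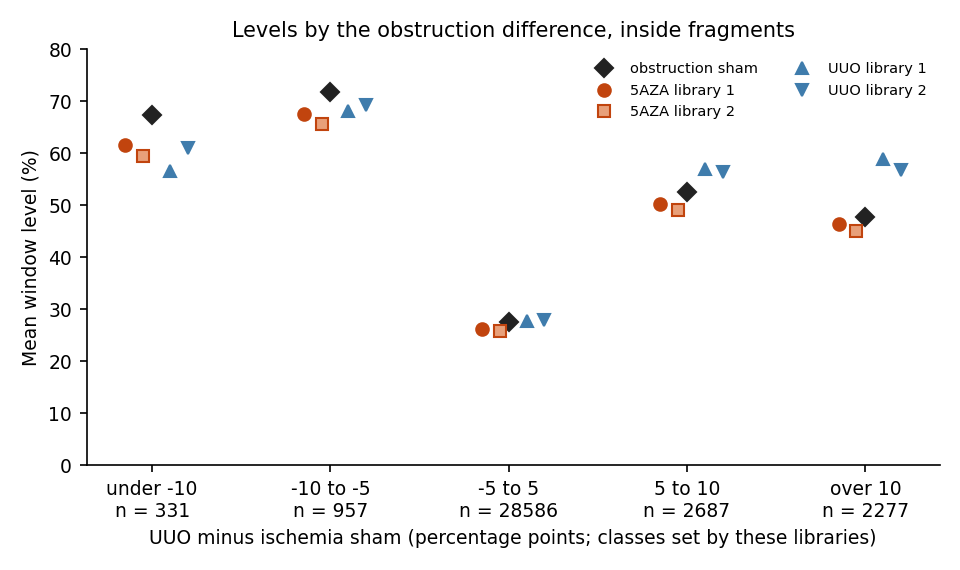
Mean window level (%) of the obstruction sham, the 5AZA libraries and the UUO libraries, inside fragments, in 5 classes set by UUO minus the ischemia sham. UUO positions on the plot follow from the choice of classes, while both 5AZA libraries sit below the sham in each class, by -2.02 points on average where UUO was over 10 points above and by -6.88 points where it was more than 10 points below.

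These classes differ in level, so windows from 30 to 70% in the ischemia sham were also taken alone. There the difference was -6.54 points where UUO was more than 10 points below (n = 112), -4.80 points where it was within 5 points (n = 973) and -2.45 points where it was over 10 points above (n = 1276). In the first of these UUO stood at 36.7% and 38.9%, below the treated libraries at 40.1% and 39.6%. In the last the sham stood at 55.2%, UUO at 66.0% and 64.2%, and the treated libraries at 53.4% and 52.0%. The treated level thus lay nearer to sham, though still below it, in windows where UUO lay above.

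The mean level after 5AZA lay below this sham on every autosome, and so did the ischemia sham. Over all windows the ischemia sham stood at 68.1%, against 69.1% in the obstruction sham and 67.0% and 66.4% in the 5AZA libraries. Mean window differences of the 19 chromosomes ran from -2.60 to -2.14 points over all positions and from -2.05 to -1.44 points inside fragments. In 1543 bins of 1 Mb with at least 20 windows, each mean difference was negative, and in 1539 both 5AZA libraries lay below sham. The bins with the lowest values lay on chromosome 7 from 122000001 to 123000000 at -6.66 points, chromosome 9 from 18000001 to 19000000 at -5.66 points and chromosome 3 from 3000001 to 4000000 at -5.36 points. Their sham levels were 81.3%, 83.4% and 85.3%, and the ischemia sham stood at 77.7%, 83.9% and 83.3% there. The bins nearest to sham lay on chromosome 1 from 9000001 to 10000000 at -0.0320 points, chromosome 11 from 23000001 to 24000000 at -0.157 points and chromosome 4 from 109000001 to 110000000 at -0.421 points, with sham levels of 47.4%, 31.6% and 46.2%. The 3 bins furthest below sham had higher sham levels than the 3 nearest to it, and the relation over all bins was not tested. Inside fragments 612 of 624 bins were below 0, and the range was -6.07 to 0.640 points. Both 5AZA libraries lay below sham in 575 of these bins and above it in 2.

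Few windows were called, and each is given with the libraries around it, in mm9. The window chr4:146593001-146594000 stood at 78.2% in sham and at 59.6% and 61.9% after 5AZA, a difference of -17.4 points with SE 1.50 (limma-moderated adjusted p = 0.00429). UUO libraries there stood at 73.7% and 71.7% and the ischemia sham at 66.1%, so the 5AZA libraries were the lowest, and the shams also lay apart. It was called inside fragments too, at -21.3 points. The window chr12:20239001-20240000 stood at 78.4% in sham and at 69.6% and 65.2% after 5AZA (-11.0 points, adjusted p = 0.0380), with 78.1% and 78.4% in UUO and 69.5% in the ischemia sham. Its reads per position, 242.5 in sham, were above the median of 50.8 over windows, and 2 neighbours, starting at 20237001 and 20240001, passed the same adjusted p at -9.72 and -9.36 points.

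Each window called inside fragments kept its call in 4 to 6 of 10 other settings. Leaving out either UUO library is the same fit as using only the 3 libraries compared. These count as separate settings here, and each window kept its call in them. Among windows called inside fragments only, chr11:33097001-33098000 had the furthest difference. It lies 6088 bp downstream of the matched start of Tlx3, a homeobox gene of neurons, and stood at 52.1% in sham, 14.4% and 17.2% after 5AZA, 20.4% and 22.3% in UUO and 19.5% in the ischemia sham. The obstruction sham stands apart from every other library in this window. The window chr8:3994001-3995000 stood at 47.5% in sham, at 26.3% and 32.3% after 5AZA, at 41.2% and 33.6% in UUO and at 33.8% in the ischemia sham. The window chr7:6084001-6085000, 23067 bp downstream of the start of the zinc finger gene Zfp787, stood at 91.8% in sham and at 82.0% and 79.6% after 5AZA (-11.0 points, limma-moderated adjusted p = 0.00566), with 89.0% and 89.1% in UUO and 85.4% in the ischemia sham. Here both 5AZA libraries lay below each library without 5AZA. The 1 called rise, chr4:53727001-53728000, stood at 6.07% in sham and at 16.8% and 20.9% after 5AZA (12.8 points, limma-moderated adjusted p = 0.0402). Levels of 1.44% and 7.43% in UUO, 0.492% in the ischemia sham and 15.2% after ischemia with 1 month of reperfusion show that a library without 5AZA also reached a similar level there.

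Deep windows passed the adjusted p with smaller differences. With a minimum of 5 points, 9 windows were lower over all positions (0.00882%) and 13 inside fragments (0.0369%). They included chr17:39982001-39983000, where the sham held 4946.7 reads per position, at 30.8% in sham and 26.0% and 25.2% after 5AZA. The ischemia sham stood at 24.9% there, so the 5AZA libraries were below the sham of the comparison and not below the other sham.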

How the data were processed

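Per the labels' protocols, fragment ends cut by MspI were filled with methylated dCTP before bisulfite conversion and PCR. Alignment used Bowtie on mm9 per the submitters' processing notes. Its version, the methylation caller and any filter were not stated in the labels. The authors' deposited tables give, per CpG, a count of covering reads and a count of methylated reads, not normalized, and the level as a rounded fraction. The 8 libraries held 57853745 to 86411736 reads over CpGs. Duplicate reads from PCR could not be removed, and intervals cover only counting error and library spread.

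Reads were joined by position (Python 3.11.15, pandas 2.3.3) and summed per window of 1000 bp. A quasi-binomial model with 1 mean per group took its dispersion from the 5AZA and UUO pairs (2 residual degrees of freedom), moderated with limma 3.58.1 in R 4.3.3, kept at 1 or more and tested by a two-sided F test. The sham was assumed to vary like the pairs. Class means weight windows equally. Depth steps above 10% to a neighbour within 250 bp, or no such neighbour, marked positions at fragment ends, and 99.9% of CCGG positions in matched promoters were marked. Promoter sequences of RefSeq (GRCm38.p6) were found in mm9 by CpG spacing, needing 8 measured CpGs and 1 match on the chromosome. Of 31396 sequences, 8034 were placed once, 74 mirrored sequences were matched, and 99.8% of placed starts kept their order along the chromosomes. An annotation of mm9 was not used here, so exons and introns are not given, and promoter and distance results were added after the design was set.

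Members and lists were chosen with earlier results of these data known. Called windows were named by the 12 furthest falls and rises with both 5AZA libraries on the same side, fewer where fewer were called, and for 1 Mb bins by the 3 lowest and 3 highest. Both 5AZA libraries were counted, and they lay further apart than counting noise (mean chi-square per position 1.16). Because duplicate reads were not removed, this value cannot tell whether the libraries are separate samples. Alternatives included other read minimums, windows, controls, limma on log2 ratios and edgeR 4.0.16. The test was tried on simulated reads with 200 windows of intermediate level changed by a known size. A change of 10 points was called in 9% of them over all positions and 1.5% inside fragments. For 20 points the shares were 73% and 41%, so most changes near the limit of 10 points would be missed.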

Additional observations from a re-analysis of the deposited data

How the results depend on the processing

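The 2 windows called became 4 with 5 reads per position, 5 without fragment ends, 9 with a minimum of 5 points and 8 with only the 3 libraries compared. They became 1 with at least 5 positions per window, 1 with thinned reads and 1 with edgeR. The count was 0 with an upper limit on depth (12750 at an unadjusted p below 0.05), with a minimum of 20 points (12896), with both shams as 1 group (16735), with limma on log2 ratios (12925), under the replicate block (11610) or over matched promoters (322). Leaving out 1 library at a time gave 8 to 430 calls. The 430, of which 420 were lower, came without 5AZA library 1, and 69 without 5AZA library 2, where the lone library was assumed to vary like the UUO pair. Inside fragments the 5 calls became 54 and 13 without these libraries, 55 without either UUO library and 0 with both shams as 1 group (4092 at an unadjusted p below 0.05), limma on log2 ratios (2766), edgeR (2817) or the replicate block (2037). Differences of library 1 from library 2 correlated weakly between the 5AZA and UUO pairs (r = 0.072 across windows). Counting noise lowers this value, so it cannot settle whether the numbers pair the libraries.

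The mean difference of -1.28 points became -1.63 over each library's own positions, -2.38 with windows weighted equally and -0.82 against both shams. With reads pooled over positions it was -1.12 points, with -2.16 for 5AZA library 1 and -0.0769 for library 2. Over own positions library 1 also lay lower, at -1.96 against -1.30 points, so the order of the libraries depended on the weighting. The share at the sham level became 13.8% with a limit of 5 points. Without fragment ends, classes were set anew, so a class does not hold the same windows in both settings. Level classes above 10% then gave -1.13 (0.10 with fragment ends), -3.65, -5.23 and -4.77 points. Density classes gave -0.86 with 6 to 10 positions (-2.50 with fragment ends) and 0.01 with 11 to 19 (-0.95). Obstruction classes, from UUO under -10 upward, gave -6.88, -5.21, -1.44 and -2.81 points. The causes were not tested. The window chr4:146593001-146594000 stayed called in 11 of 15 settings and chr12:20239001-20240000 in 6 of 14, and neither changed direction in those settings. The settings without either UUO library and with only the 3 libraries compared are the same fit, so these counts hold it more than once. A median of 208 to 250 reads per window left a median interval of 6.60 points to each side of a difference.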
